A study of Mus musculus with 4 samples.

Results

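The 9 genes described here encode 3 matrix metalloproteases (Mmp9, Mmp2 and Mmp14), 3 ADAMTS proteases (Adamts1, Adamts4 and Adamts5) and 3 tissue inhibitors of metalloproteases (Timp1, Timp2 and Timp3). They were taken by name from the families that cut and protect the extracellular matrix. All 9 were among the 12208 genes of the deposited table and among the 12160 genes tested, which had a mean of at least 1 CPM. CPM is the count of a gene's reads per 1000000 reads of the listed genes.

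The samples were cells of the mouse line 3T3, given in the labels as a pre-osteoblast line. The 4 groups were control cells at 24 h, control cells at 48 h, cells given recombinant LTα1β2 (LTAlpha1Beta2 in the labels) for 24 h, and cells given it for 48 h. Each group was a single library (n = 1), and differences within 1 time point are therefore without replication. LTα1β2 is the membrane-type lymphotoxin heterotrimer of the TNF superfamily, and its receptor on stromal cells is LTβR.

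Matrix metalloproteases are zinc enzymes made as inactive precursors. MMP-2 and MMP-9 are the gelatinases, which digest denatured collagen and basement membrane collagen, and MMP-14 is a membrane-bound collagenase that activates pro-MMP-2 at the cell surface with TIMP-2 as its adaptor. ADAMTS-1, ADAMTS-4 and ADAMTS-5 are secreted enzymes that cut the proteoglycans aggrecan and versican. TIMPs block the active site of these enzymes. TIMP-1 also binds pro-MMP-9, and TIMP-3, which stays in the matrix, inhibits the ADAMTS enzymes that cut aggrecan. In bone MMP-9 is best known from osteoclasts. The values below are of RNA and not of enzyme activity.

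Depth was 11355974 to 15995777 reads per library. Of 8 osteoblast markers 6 were in the table. Col1a1 was at 7356 to 15684 CPM, Runx2 at 67.5 to 126 CPM, Sp7 at 7.93 to 35.1 CPM and Bglap, a gene of mature osteoblasts, at 1.13 to 1.33 CPM. In the test of treatment described below 4 of the 6 fell, Col1a1, Runx2, Sp7 and Dmp1 (2.27% of all tested genes fell), while Spp1, the osteopontin gene, was at 1.16 and 1.45 of control and did not pass (limma adjusted p = 0.337). Of the 4 measured fibroblast markers 1 rose, S100a4 (1.38 and 2.43 of control, 0.0124), 1 fell, Pdgfrb (0.748 and 0.594, 0.0197), and Pdgfra and Vim did not pass. Fabp4, the 1 of 5 adipocyte markers in the table, rose (1.24 and 4.61, 0.00267), at 1.45 to 6.69 CPM, and 0 of 5 endothelial markers were in the table. The part of such cells in the results below was not tested. The library given LTα1β2 for 48 h stood apart in composition: the median transcript length, weighted by reads, was 2847 bases there and 3320 to 3403 bases in the others. Across 12157 genes the log2 fold at 48 h declined with transcript length (Spearman's rho = -0.471, a description across genes that share these libraries), where rho at 24 h was -0.0253. Where stated, results are therefore also given with each library's length trend removed. Among the markers, Fabp4 (limma adjusted p = 0.111), S100a4 (0.185) and Col1a1 (0.108) then did not pass. Pdgfra then rose (0.0328), and Runx2, Sp7, Dmp1 and Pdgfrb still fell. In bulk RNA, fewer cells of a kind and less RNA per cell cannot be told apart.

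Gene positions are from GENCODE M21 on GRCm38; the build behind the deposited values is not given in the sources used here. Mmp9 lies on chromosome 2 (164940780 to 164955850, plus strand), Mmp2 on chromosome 8 (92827291 to 92853420, plus), Mmp14 on chromosome 14 (54431612 to 54445364, plus) and Adamts4 on chromosome 1 (171250421 to 171260637, plus). Adamts1 (85793827 to 85803113) and Adamts5 (85856173 to 85901828) are neighbours on the minus strand of chromosome 16, with 53059 bases between them that hold 1 gene, not protein-coding. Timp1 lies on chromosome X (20870166 to 20874735, plus), Timp2 on chromosome 11 (118301069 to 118355740, minus) and Timp3 on chromosome 10 (86300372 to 86349506, plus). Timp1 lies inside Syn1 and Timp3 inside Syn3, both on the other strand, and Timp2 overlaps Cep295nl on its own strand. These 3 pairs share 0 exon bases, and whether reads were counted by strand is not given in the sources used here.

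The 250 bases before the start of transcription were taken from RefSeq (GRCm38.p6), where 5 members matched by symbol: Timp1, Timp2, Timp3, Mmp14 and Adamts1. The 3 of these that passed the test of treatment are shown, since 1 rose and the other 2 fell. Capitals mark the GC box GGGCGG and the TATA box TATAAA on either strand, 2 motifs that were added after the sequences had been seen.
Timp1 at chrX:20869916-20870165, plus strand: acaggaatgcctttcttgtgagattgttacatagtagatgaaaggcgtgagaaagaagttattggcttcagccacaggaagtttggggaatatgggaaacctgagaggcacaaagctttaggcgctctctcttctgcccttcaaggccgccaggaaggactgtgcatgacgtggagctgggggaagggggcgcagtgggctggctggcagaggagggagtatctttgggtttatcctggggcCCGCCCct
Timp3 at chr10:86300162-86300411, plus strand: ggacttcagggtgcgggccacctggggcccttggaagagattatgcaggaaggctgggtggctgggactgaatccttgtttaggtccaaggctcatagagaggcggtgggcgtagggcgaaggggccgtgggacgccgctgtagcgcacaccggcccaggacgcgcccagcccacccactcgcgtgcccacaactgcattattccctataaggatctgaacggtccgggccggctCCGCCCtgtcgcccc
Adamts1 at chr16:85803114-85803363, minus strand: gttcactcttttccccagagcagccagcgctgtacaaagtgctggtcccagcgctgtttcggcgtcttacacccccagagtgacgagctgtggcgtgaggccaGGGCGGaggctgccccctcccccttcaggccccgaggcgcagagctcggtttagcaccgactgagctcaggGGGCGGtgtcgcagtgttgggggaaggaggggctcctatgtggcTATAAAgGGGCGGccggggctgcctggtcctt
Timp1 and Timp3 held 1 GC box each and Adamts1 held 3, and Adamts1 also held the TATA box, 32 bases before the start. The windows of Mmp14 and Timp2, which did not pass, held 2 GC boxes and 1, and 0 TATA boxes. All 5 windows thus held the GC box, whether or not the gene passed. Of all 32851 RefSeq windows of this length 32.7% held GGGCGG and 12.4% held TATAAA. The AP-1 motif TGANTCA (6.75% of windows) and the NF-κB consensus (3.9% of windows), searched on both strands, had 0 matches in the 5 windows, which says only that these letters are not in them. No marked match overlaps another. G and C made up 65.6% of the windows of Timp3 and Adamts1 and 54.4% of that of Timp1. For Timp3 the 2 sources place the start differently: its GENCODE gene begins at 86300372, inside the window and ahead of the marked GC box. The window of Timp2, not shown, lies wholly inside its GENCODE gene.

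The first comparison asked which of the 9 genes differed with LTα1β2. Mmp9 and Timp1 were higher with it at both times, and Adamts1, Timp3, Mmp2, Mmp14, Adamts5 and Timp2 were lower at both. The test the design allows takes the 2 times as repeats in an additive model of time and treatment (limma over 12160 genes, Benjamini-Hochberg adjusted). In it 2 members rose, Mmp9 and Timp1, where 2.92% of all tested genes rose. Another 2 fell, Adamts1 and Timp3, where 2.27% of all genes fell, and 5 did not pass (5.19% of all genes passed in either direction). By size alone 1 member, Mmp9, was at least 2-fold higher, at 24 h (0.345% of all genes) and again at 48 h (1.86%). No member (0 of 9) was at least 2-fold lower at 24 h (0.181% of all genes), and 2 were at 48 h (0.715%), Adamts1 and Adamts4. With the length trend removed that last count was 0. Any lower value at both times was found in 6 members and 33.2% of all genes, and any higher value at both times in 2 members and 28.8%. The members' median log2 fold was -0.14 at 24 h and -0.47 at 48 h, beside 0.02 and -0.09 for all tested genes. Both were taken with the length trend in place, and all members but Timp1 (883 bases) have transcripts of 3078 bases or more. The part of transcript length in these medians was not tested.

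**Figure D1:**
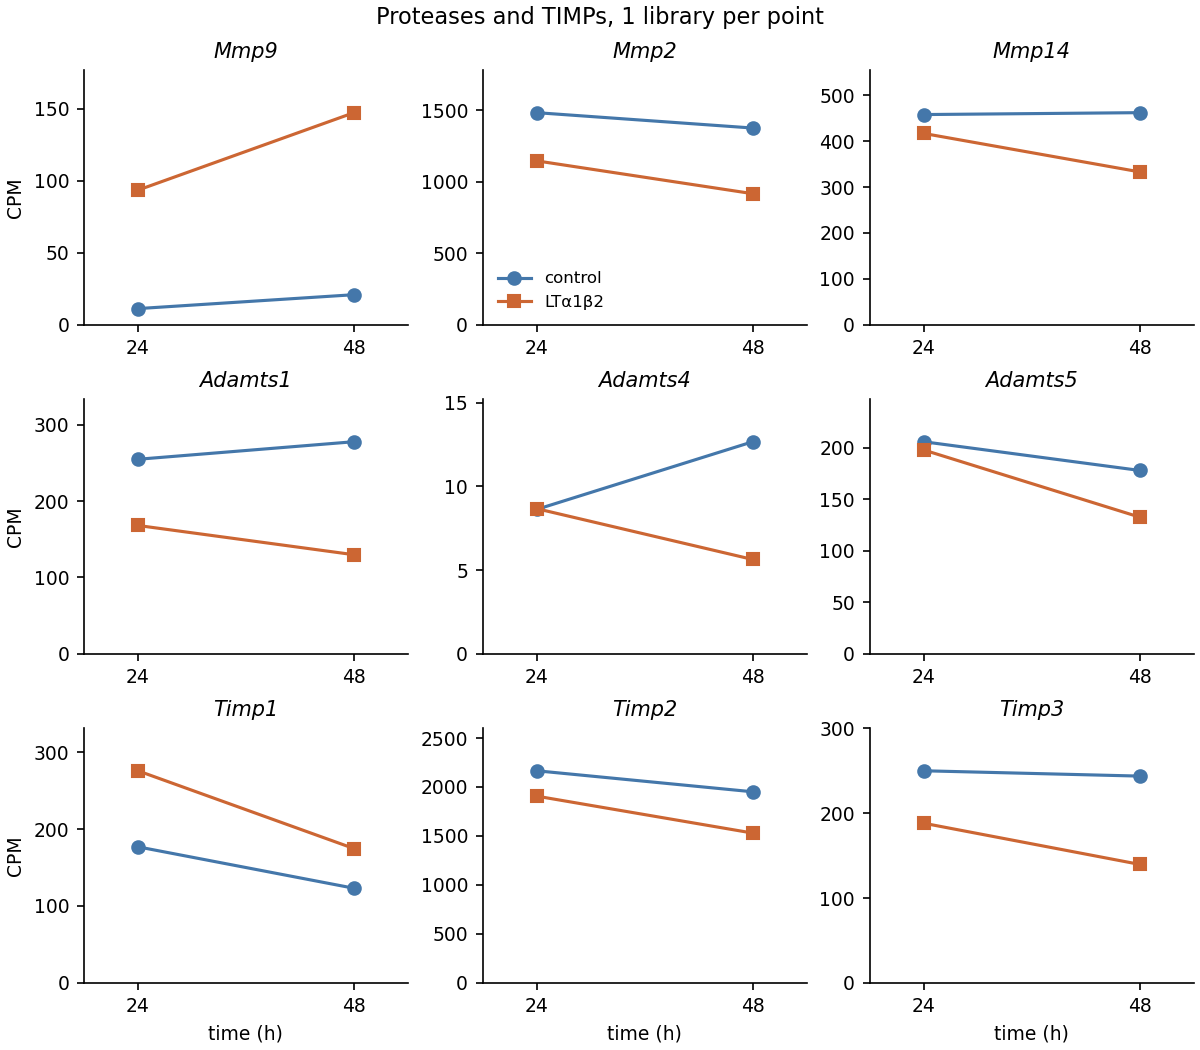
CPM of each of the 9 genes (vertical axes, starting at 0) by time in hours (horizontal axes), with 1 library per point, for control and for LTα1β2. Mmp9 and Timp1 lie above control at both times, and Adamts4 lies at the control level at 24 h and below it at 48 h.

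Of the proteases, Mmp9 differed most. The control libraries had 11.2 CPM (24 h) and 20.8 CPM (48 h), and the LTα1β2 libraries had 93.4 and 147 CPM. Both LTα1β2 libraries were above both controls, and with or without ligand the 48 h library was the higher. The ratio to control was 8.35 at 24 h (95% counting interval 7.14 to 9.81) and 7.06 at 48 h (6.21 to 8.06). Such intervals come from reads recovered from the CPM steps and cover counting error only. Mmp9 rose in the additive fit by 2.86 ± 0.17 log2 units (SE, limma adjusted p = 1.9e-57), rank 5 from the top of 12160 genes. It passed under all 15 other settings, with adjusted p from 1.9e-120 to 0.0117. The fit takes its spread from genes of like level and not from the gene itself, so the size of its smallest p-values should not be read.

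Since osteoclasts and leukocytes also express Mmp9, their markers were read beside it. Of 8 osteoclast markers 1 was in the table, the protease gene Ctsk, which had 105 and 117 CPM in the control libraries (24 h, 48 h) and 101 and 115 CPM in the LTα1β2 libraries. Of 8 macrophage and leukocyte markers 4 were in the table, and they summed to 72.1 and 83.8 CPM without LTα1β2 and to 67.9 and 98.2 CPM with it, mostly from Lyz2. Ctsk was level within counting error at both times, while the leukocyte sum was lower with LTα1β2 at 24 h and higher at 48 h, as was Lyz2 itself. Csf1r ranged from 0.793 to 1.56 CPM. Cd68 was at 1.47 of control (0.89 to 2.46) at 24 h and 0.874 (0.498 to 1.51) at 48 h, within counting error at 1.81 to 2.67 CPM. Cd14, which fibroblasts can express too, had 10.5 CPM with LTα1β2 against 7.06 CPM without it at 24 h, and 12.3 against 8.4 CPM at 48 h, above control at both times, and did not pass (limma adjusted p = 0.117). The other 4 of these 5 markers did not pass either, and 0 of 6 neutrophil markers were in the table. The part of such cells in the Mmp9 result was not tested.

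Mmp2, the second gelatinase gene, went the other way. Its control libraries had 1481 CPM (24 h) and 1374 CPM (48 h), and its LTα1β2 libraries 1145 and 915 CPM. Both LTα1β2 values lay below both control values, again only a description. The ratio to control was 0.773 (0.758 to 0.788) at the first time and 0.666 (0.65 to 0.683) at the second, and the additive test was not passed (log2 fold -0.48 ± 0.19 SE, limma adjusted p = 0.142). Mmp2 did pass with the length trend removed (0.0318), without the LTα1β2 library of 48 h (0.0458) and without that of 24 h (1.9e-08), a fit in which 1886 of all genes rose and 3063 fell.

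Mmp14, the gene of the pro-MMP-2 activator, was level between the control libraries, with 458 CPM (24 h) and 462 CPM (48 h). With LTα1β2 it had 417 and 333 CPM, below both controls. The ratios were 0.91 (0.88 to 0.942) and 0.721 (0.692 to 0.751), and the gene did not pass (limma adjusted p = 0.408).

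Adamts1, a proteoglycan-cutting enzyme gene, had 255 CPM (24 h) and 278 CPM (48 h) in the control libraries and 168 and 129.7 CPM in the LTα1β2 libraries. Both LTα1β2 libraries lay well below both controls, that of 48 h the lower. The ratios were 0.66 (0.627 to 0.693) and 0.467 (0.439 to 0.496), and Adamts1 fell (log2 fold -0.84 ± 0.17 SE, limma adjusted p = 9.6e-05). With the length trend removed its 48 h log2 fold was -0.89 in place of -1.09, and it still passed (0.000372). The call was lost without the control library of 24 h (0.633) or of 48 h (1.0), with no time term (0.132), and with 9.82 prior degrees of freedom, which give the gene's own spread more weight (0.0825).

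Adamts5, the next protein-coding gene on the chromosome and a main aggrecan-cutting enzyme of cartilage, had 206 CPM (24 h) and 178 CPM (48 h) in control and 198 and 133 CPM with LTα1β2. Only the LTα1β2 library of 48 h stood clearly below the rest. Its 24 h ratio had an interval that included 1 (0.961, 0.914 to 1.01), its 48 h ratio was 0.745 (0.698 to 0.796), and it did not pass (limma adjusted p = 0.543). Its transcript of 10791 bases is the longest among the members, and with the length trend removed the 48 h log2 fold was -0.03 in place of -0.42. Adamts1 over Adamts5 was 1.24 and 1.56 in the control libraries and 0.85 and 0.979 in the LTα1β2 libraries. That ratio changed to 0.686 of control (0.639 to 0.737) by 24 h and 0.627 (0.573 to 0.686) by 48 h, more than counting error at both times.

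Adamts4, the other well-known aggrecan-cutting enzyme gene, had the fewest reads, 64 to 166 per library. Control had 8.63 CPM (24 h) and 12.7 CPM (48 h), and LTα1β2 8.67 and 5.64 CPM. The 24 h libraries were alike within counting error (ratio 1.01, 0.785 to 1.29), and the 48 h ratio was 0.445 (0.328 to 0.597). Between the times the control value went to 1.47 of its start (1.17 to 1.85) and the LTα1β2 value to 0.65 (0.474 to 0.883), opposite directions that 1 library per group cannot test. The gene did not pass for treatment (log2 fold -0.52 ± 0.20 SE, limma adjusted p = 0.115).

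Timp1 was the inhibitor gene that rose. Control had 177 CPM (24 h) and 123 CPM (48 h), and LTα1β2 had 276 and 175 CPM. The LTα1β2 library was the higher at each time, but that of 48 h lay just below the control of 24 h, so the pooled groups overlap. The ratios were 1.56 (1.49 to 1.64) and 1.42 (1.33 to 1.52), with an additive log2 fold of 0.57 ± 0.17 (SE, limma adjusted p = 0.0216). Its transcript, 883 bases, is the shortest among the members. With the length trend removed the log2 fold was 0.60 at 24 h but 0.15 at 48 h (0.50 otherwise), and the call was lost (0.0518). It was also lost without the control library of 24 h (0.906) or 48 h (1.0), with no time term (0.533) and with 9.82 prior degrees of freedom (0.202). Syn1, the gene around it, had lower values with LTα1β2, 15.3 against 19.8 CPM at 24 h and 10.9 against 19.7 CPM at 48 h.

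Timp2, which encodes the adaptor for pro-MMP-2, had 2166 CPM (24 h) and 1951 CPM (48 h) in control and 1907 and 1529 CPM with LTα1β2. The LTα1β2 libraries were below both controls, at ratios of 0.88 (0.867 to 0.894) and 0.784 (0.769 to 0.799), and the test was not passed (limma adjusted p = 0.578). Timp3, the gene of the matrix-bound inhibitor, was level in control at 250.1 CPM (24 h) and 244 CPM (48 h), and had 188 and 139.7 CPM with LTα1β2. Both LTα1β2 values of Timp3 lay below both of its control values, again only a description. Ratios of 0.753 (0.717 to 0.79) and 0.573 (0.539 to 0.609) gave a log2 fold of -0.60 ± 0.17 (SE, limma adjusted p = 0.013), so Timp3 fell. It passed with the length trend removed (0.00416) and not with median-of-ratios rescaling (0.0682), no time term (0.311), 9.82 prior degrees of freedom (0.202) or without either control library (1.0 for each).

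**Figure D2:**
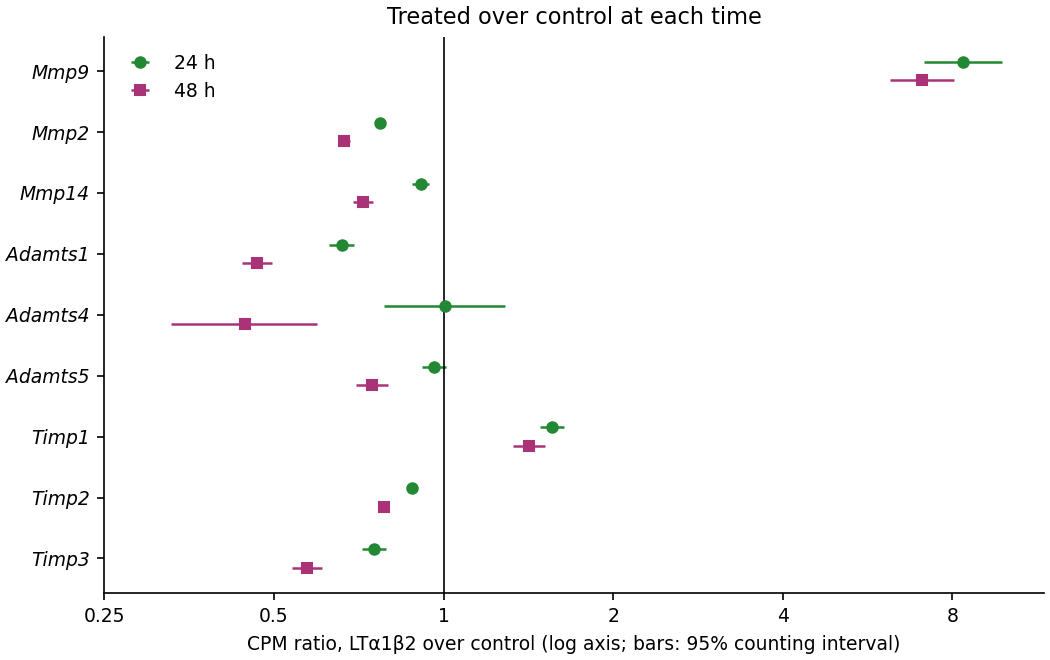
Ratio of CPM with LTα1β2 over control (log axis) for each gene at 24 h and 48 h, with 95% counting intervals as bars. Mmp9 lies at 8.35 and 7.06 and Timp1 at 1.56 and 1.42, and in all 9 genes the 48 h ratio is the lower.

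In 9 of 9 members the 48 h fold was below the 24 h fold, as in 61.6% of all tested genes. The gap in log2 units was smallest for Timp1 (-0.14) and widest for Adamts4 (-1.05), and with 1 pair of libraries per time it was not tested. Part of this changed with the length trend removed. The log2 fold of Adamts5 was then -0.06 at 24 h and -0.03 at 48 h, so its 48 h fold was no longer the lower. That of Timp1 was 0.60 and 0.15, no longer the smallest gap, beside -0.20 and -0.22 for Timp2.

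The second comparison was time, in the same fit. Mmp9 rose from 24 h to 48 h, to 1.86 times its earlier value in control (1.54 to 2.26) and 1.58 times with LTα1β2 (1.47 to 1.69), a log2 change of 0.75 ± 0.17 (SE, limma adjusted p = 0.00785). It was the 1 member that passed, where 0.485% of all genes rose and 0.493% fell (0.979% in all). The call was lost with median-of-ratios rescaling (0.237) and with 9.82 prior degrees of freedom (0.581). Timp1 stood at 0.695 (0.654 to 0.74) and 0.633 (0.6 to 0.668) of its 24 h value and narrowly missed the threshold (log2 change -0.59 ± 0.17 SE, limma adjusted p = 0.0525). It passed with a pseudocount of 5 (0.0454) and with the length trend removed (0.0114). The other 7 had adjusted p from 0.271 to 0.977. Values lower at 48 h with and without ligand were found in 5 members (40.4% of all genes), and values higher at 48 h in both in 1 (22.0%), Mmp9.

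Levels of different genes were compared per length, as CPM per kilobase of the longest GENCODE basic transcript. On that scale Timp2 was first (412 to 584) and Mmp2 second (297 to 481) in every library. Timp1 (139 to 312) was ahead of Mmp14 (103 to 143) except in the 48 h control. Adamts1 (26.6 to 56.9) and Timp3 (29.6 to 53) changed places between libraries. Adamts5 (12.3 to 19.1) stood below both of them, and Adamts4 (1.28 to 2.89) was last in every library. Mmp9 ranked 8 of 9 in both controls (3.52 and 6.56), 7 with LTα1β2 at 24 h (29.4) and 5 at 48 h (46.4).

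The third comparison was the balance of proteases against inhibitors, as the summed CPM of the 6 protease genes over that of the 3 TIMP genes. It was 0.933 (0.92 to 0.946) in control and 0.856 (0.843 to 0.869) with LTα1β2 at 24 h. At 48 h it was 1.0 (0.987 to 1.02) and 0.902 (0.885 to 0.92). The balance with LTα1β2 was therefore 0.917 of control (0.898 to 0.936) at the first time and 0.899 (0.877 to 0.923) at the second, lower by more than counting error at both. Neither the balance nor the ratios of pairs below were taken with the length trend removed. The members' 48 h log2 folds then moved unequally, from -0.59 to -0.50 for Mmp2 and from -0.35 to -0.22 for Timp2. For Adamts5 the move was from -0.42 to -0.03 and for Timp1 from 0.50 to 0.15. The part of transcript length in the balance was not tested. Both sums were lower with LTα1β2: at 48 h the proteases had 1663 against 2325 CPM and the TIMPs 1844 against 2318 CPM.

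The direction of this balance depends on the weights. Mmp2 and Timp2 together held 69.3% to 72.8% of the members' reads in each library. Without Mmp2 the balance was 1.03 of control (1.0 to 1.06) at 24 h and 0.989 (0.957 to 1.02) at 48 h, so that it was higher at the first time. Without Timp2 the values were 0.772 and 0.835, without Mmp9 0.879 and 0.827, and on CPM per kilobase 0.808 and 0.812. Division by length is the same in every library and leaves the length trend of each in place. With every gene given the same weight, as the mean of log2 values, it was above control, by factors of 1.23 and 1.04, but without Mmp9 the same mean was below control, at 0.843 and 0.691.

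Ratios with Mmp9 moved further than the sums. Mmp9 over Mmp2 was 0.00755 and 0.0152 in the control libraries and 0.0816 and 0.161 in the LTα1β2 libraries, a change of 10.8-fold (9.23 to 12.7) at 24 h and 10.6-fold (9.3 to 12.1) at 48 h. Of the reads of both gelatinase genes at 48 h, Mmp9 took 1.49% (exact binomial interval 1.32 to 1.68) in control and 13.9% (13.2 to 14.5) with LTα1β2. Mmp2 thus stayed the more abundant gelatinase RNA in every library. Mmp9 over Timp1 was 0.0632 and 0.169 in control and 0.339 and 0.843 with LTα1β2, a change of 5.35-fold (4.54 to 6.34) and 4.98-fold (4.3 to 5.77). Although Timp1 was higher too, the enzyme gene gained on the inhibitor gene. Per kilobase Mmp9 still had only 0.234 of the level of Timp1 in the LTα1β2 library of 48 h.

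Mmp2 over Timp2 was lower with LTα1β2 by more than counting error, at 0.878 (0.856 to 0.9) and 0.85 (0.824 to 0.877) of control. Mmp14 over Timp2 was at 1.03 (0.996 to 1.07) and 0.919 (0.879 to 0.962), the first within counting error. The 3 ADAMTS genes over Timp3 gave 1.88 and 1.92 in control and 1.99 and 1.92 with LTα1β2. Those changes of 1.06 (0.999 to 1.13) and 0.999 (0.927 to 1.08) were within counting error, which bounds a difference and does not show that there was none. The sum covers genes that moved apart. At 48 h Timp3 was at 0.573 of control, with Adamts1 (0.467) and Adamts4 (0.445) below it and Adamts5 (0.745) above it. Between inhibitors, Timp1 over Timp3 changed by 2.07-fold (1.93 to 2.22) and 2.48-fold (2.26 to 2.71), and these transcripts differ in length, 883 and 4722 bases. With the length trend removed the log2 folds at 24 h and 48 h were 0.60 and 0.15 for Timp1 and -0.42 and -0.60 for Timp3. The folds of these genes then lay closer together at 48 h than at 24 h, so the larger change at 48 h was not kept.

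**Figure D3:**
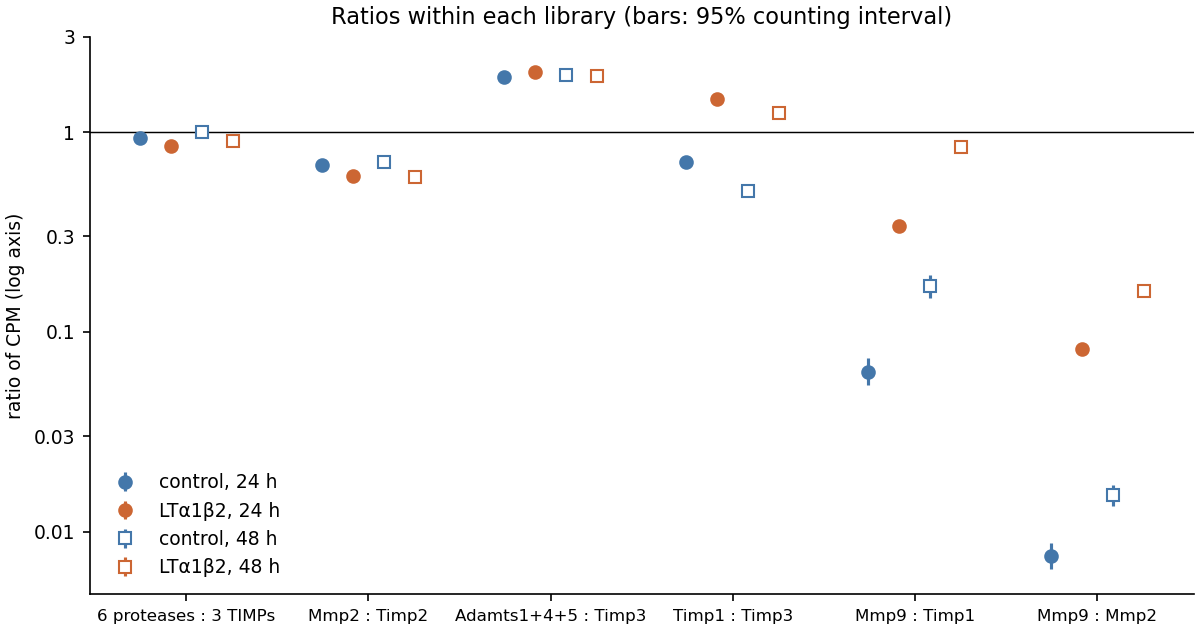
Ratio of CPM between genes or sums of genes within each library (log axis) for 6 pairs, with 95% counting intervals as bars, for control and LTα1β2 at 24 h and 48 h. Mmp9 over Mmp2 goes from 0.00755 to 0.0816 at 24 h, while the summed balance stays between 0.856 and 1.0.

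For each member that passed, the 3 genes nearest in pattern were found by Euclidean distance over the 3 differences of log2(CPM + 1) from control at 24 h, across 4 libraries. For Mmp9 they were Serpina3g (distance 0.72), the complement gene C3 (0.975) and the chemokine gene Ccl2 (1.08), with 0 genes within 0.25 and a median distance of 4.82 to all genes. Folds were not scaled in this distance, and only 42 of all tested genes were at least 2-fold higher at 24 h, so few could lie near Mmp9. The count of 0 therefore says nothing of its pattern. Serpina3g (log2 folds 2.75 at 24 h and 2.74 at 48 h) and C3 (2.89 and 3.19) had folds of like size. For Timp1 they were Zfp458 (0.0465), Sbno2 (0.144) and Osmr, the oncostatin M receptor gene (0.15), with 10 genes within 0.25. Adamts1 was nearest to Cd248, the gene of the stromal protein endosialin (0.0739), Irx3 (0.105) and AI464131 (0.107), with 47 genes within 0.25. Timp3 was nearest to Ankrd44 (0.0349), Cdc42bpa (0.0456) and Zfp521 (0.0493), with 215 genes within 0.25. These counts depend on the size of the folds and do not rank the 4 patterns.

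The wider system was read from 99 further genes in 8 lists, of which 54 were in the table and tested. In the additive fit 0 of the 54 rose (2.92% of all tested genes), 7 fell (2.27%) and 47 did not pass. Their median log2 fold was -0.13 at 24 h and -0.39 at 48 h, beside 0.02 and -0.09 over all tested genes. Of them 37 were below control at both times, as were 33.2% of all tested genes. These medians and counts were taken with the length trend in place, so the part of transcript length in them was not tested. Of 5 other MMP genes 0 passed (5.19% of all tested genes), and the most abundant, Mmp19 and Mmp11, had 48 h ratios of 0.985 (0.889 to 1.09) and 0.976 (0.842 to 1.13).

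Of 7 other ADAMTS genes 1 fell (2.27% of all tested genes), Adamts9, which encodes a proteoglycan-cutting enzyme. It had 63.5 and 60.4 CPM in the control libraries and 39.8 and 37.2 CPM in the LTα1β2 libraries (limma adjusted p = 0.00421). Its ratios of 0.626 and 0.617 were close at the 2 times, but its transcript is 8016 bases long. With the length trend removed its log2 folds were -0.67 and -0.36, no longer close, and it still passed (0.0155). Adamts2, the procollagen N-proteinase gene, was at 0.877 and 0.705 of control and did not pass (0.28). Its 48 h log2 fold of -0.50 was -0.20 with the length trend removed. Adamts12 did not pass either (0.116). Of 4 ADAMTS-like genes, whose products lack the protease domain, 2 fell (2.27% of all tested genes). Adamtsl3 had 297 and 314 CPM in control and 171 and 116 CPM with LTα1β2 (limma adjusted p = 2.7e-08). That was the lowest fold among the members and the wider lists. Adamtsl1 was at 0.657 and 0.531 of control (0.00216), and Adamtsl4 did not pass (0.723).

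Of 7 ADAM genes 1 fell (2.27% of all tested genes), Adam23 (0.804 and 0.603 of control, limma adjusted p = 0.0453), whose product is thought to lack protease activity. The sheddase gene Adam10 stood at 0.969 and 0.766, and its 48 h log2 fold of -0.38 was -0.19 with the length trend removed. Of 5 other inhibitors and 9 activators 0 passed for treatment (5.19% of all tested genes). Among the activators were the cathepsin genes Ctsb (0.923 and 0.924) and Ctsl (0.987 and 1.15). Of 6 uptake receptor genes 0 passed (5.19% of all tested genes). Lrp1, the endocytic receptor that clears MMPs and ADAMTS enzymes, stood at 0.884 and 0.637, and the collagen receptor gene Mrc2 at 0.804 and 0.693. With the length trend removed the 48 h log2 fold was -0.20 in place of -0.65 for Lrp1, whose transcript is 14888 bases long. For Mrc2 it was -0.28 in place of -0.53.

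Of 11 substrate genes 10 were below control at both times (33.2% of all tested genes) and 3 fell (2.27%). Col1a1, a chain of type I collagen, had 15684 and 14201 CPM in control and 10034 and 7356 CPM with LTα1β2 (limma adjusted p = 0.0338). Col3a1 was at 0.695 and 0.515 of control (0.00911) and the fibronectin gene Fn1 at 0.739 and 0.498 (0.0331). Col1a2 was at 0.734 and 0.615 and did not pass (0.212). With the length trend removed Col3a1 passed (0.0109) and Col1a1 (0.108) and Fn1 (0.078) did not. The calls of the 7 wider-list genes that fell held in 8 (Col1a1 and Fn1) to 12 (Adamtsl3) of the 15 other settings. All 7 were lost with no time term and without the control library of either time, where Adamtsl3 had limma adjusted p = 0.115 (24 h left out) and 0.278 (48 h left out), and Col1a1 and Fn1 were also lost without the LTα1β2 library of 48 h (0.119 and 0.228).

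**Figure D4:**
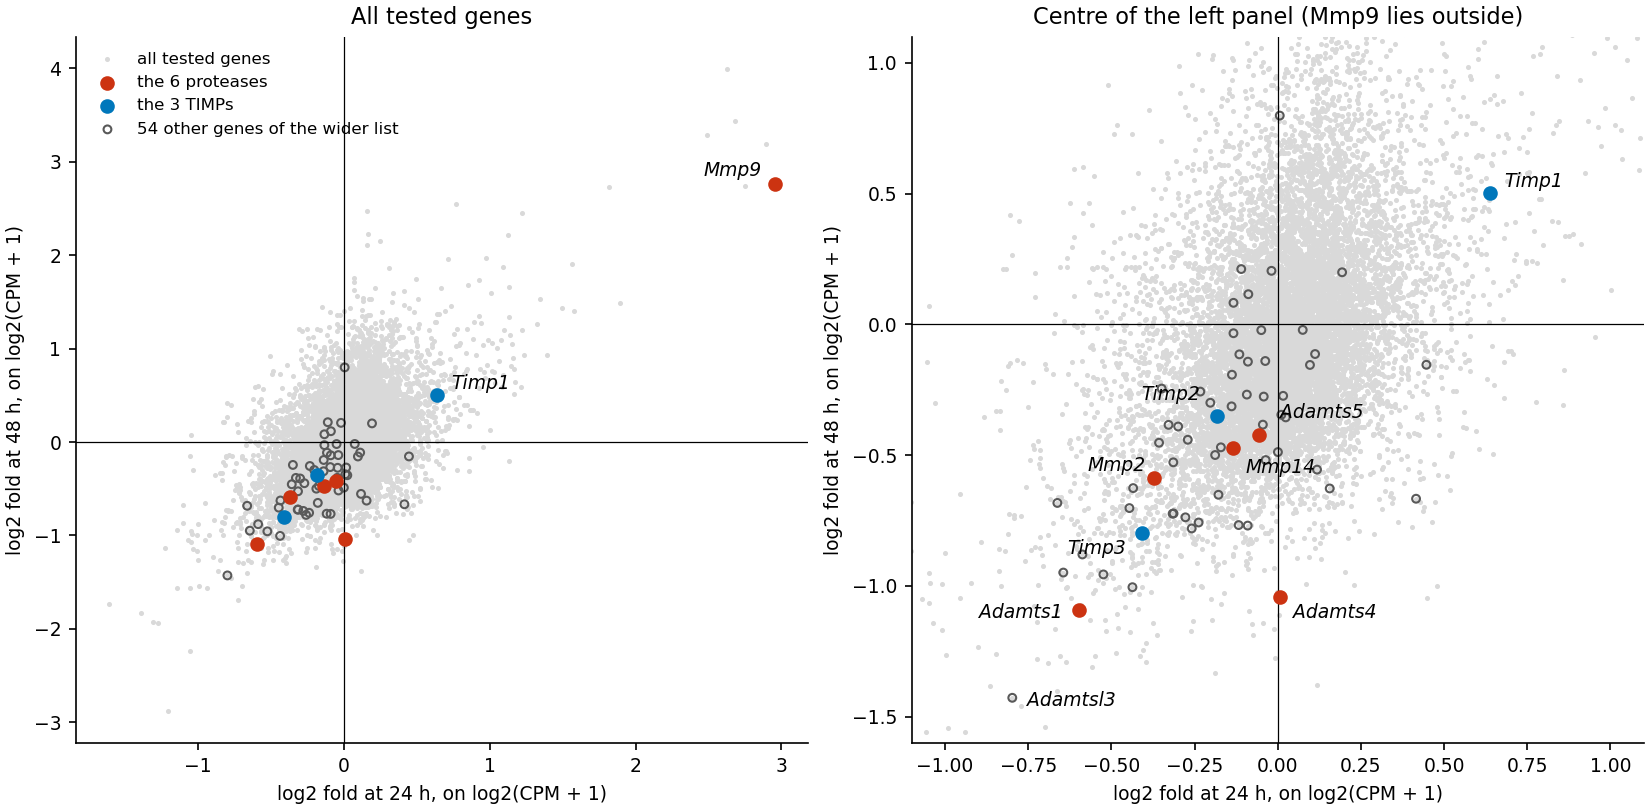
Log2 fold with LTα1β2 over control at 24 h (horizontal axis) and 48 h (vertical axis), on log2(CPM + 1), for all tested genes, the 6 proteases, the 3 TIMPs and the 54 wider genes, with the centre enlarged on the right. Mmp9 lies at 2.95 and 2.76, and 37 of the 54 wider genes lie below 0 on both axes, as do 33.2% of all tested genes.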

How the data were processed

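RNA from 4 libraries of mouse 3T3 cells had been sequenced. The authors deposited CPM for 12208 genes, and the submitters' processing notes name edgeR 3.30.0. The sources used here do not give the aligner, counter, build or annotation. Each column sums to 1000000 and holds 0 zeros. All values (100%) were whole multiples of 1 step within 0.01 of a read, with 9 to 12 reads as the lowest, so reads could be recovered. They were used for exact 95% intervals (Clopper-Pearson, conditional for ratios), and no count model was fitted.

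Symbols, positions and lengths were matched from GENCODE M21 by identifier without version (12205 of 12208). Log2 folds were taken on log2(CPM + 1), a scale that shrinks the folds of low genes. The additive fit was made with limma 3.58.1 in R 4.3.3 (trended prior, two-sided, adjusted p of 0.05), with 1 residual degree of freedom and an infinite estimate of the prior degrees of freedom. It was also run on simulated reads. Those held no change with time and no length trend, so they cannot show how the fit behaves with either. The labels do not say whether the libraries are separate cultures, so a p-value measures only the spread between these libraries. Single times were described by a 2-fold rule.

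The members, lists and settings were chosen with earlier results of these data known. The text names all 9 members, wider-list genes that passed or differed 2-fold, the 2 most abundant of each list, the 3 nearest genes of each member that passed, overlapping genes and cell type markers, except for 2 genes that are not reported here.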

Additional observations from a re-analysis of the deposited data

Results flagged for a closer look

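Among the members, the named wider-list genes and the cell type markers 3 had ratios on opposite sides of control at the 2 times, each by more than counting error. Cst3, the gene of the protease inhibitor cystatin C, had a ratio to control of 0.927 (0.892 to 0.963) in the 24 h libraries and of 1.16 (1.11 to 1.21) in the 48 h libraries, a difference of 0.32 between the log2 folds. Adam9, a sheddase gene, was at 1.08 (1.03 to 1.14) and 0.924 (0.867 to 0.985), a difference of -0.23. Lyz2, the lysozyme gene among the leukocyte markers, was at 0.873 (0.794 to 0.959) and 1.15 (1.05 to 1.27), a difference of 0.40. These differences were not tested, since each fold rests on 1 pair of libraries. Their transcripts are 860, 4044 and 1316 bases long, and with the length trend removed the 48 h log2 folds were -0.15, 0.04 and 0.00.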

How the results depend on the processing

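Of the 15 other settings of the additive fit, Mmp9 passed for treatment in 15, Adamts1 in 11, and Timp1 and Timp3 in 10 each. The 2 members that rose and 2 that fell became 1 and 3 with the length trend removed, 2 and 1 with median-of-ratios rescaling, and 1 and 0 both with no time term and with 9.82 prior degrees of freedom, a setting chosen after seeing the data. Leaving out 1 library, a fit without the time term in which a lone sample is assumed to vary like the others, gave 1 to 2 higher and 0 to 7 lower. Over all genes, 355 higher and 276 lower became 95 and 84 with rescaling, 20 and 11 with no time term, 39 and 25 with 9.82 prior degrees of freedom, and 16 to 1886 and 6 to 3063 with 1 library left out. For time, 1 member higher became 0 with rescaling and with 9.82 prior degrees of freedom, and 0 lower became 1 (Timp1) with a pseudocount of 5 and with the length trend removed. Over all genes 59 higher and 60 lower became 0 and 0 with rescaling and with 9.82 prior degrees of freedom (limma, where 1455 and 1020 genes had an unadjusted p under 0.05), 1 and 7 with the length trend removed, and 102 lower with no trend in the prior.

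At a threshold of 1.5-fold, 2 members were higher and 1 lower at 24 h, and 4 were lower at 48 h. The 2 members at least 2-fold lower at 48 h became 1 with a pseudocount of 5, 1 with rescaling and 0 with the length trend removed. Over all genes at 24 h, 42 higher became 19 with a pseudocount of 5 and 180 at 1.5-fold, and 22 lower became 44 with a pseudocount of 0.25, 5 with one of 5, 14 at a mean CPM of at least 5 and 164 at 1.5-fold. At 48 h, 226 higher became 126 with a pseudocount of 5, 144 with the length trend removed and 899 at 1.5-fold, and 87 lower became 156 with a pseudocount of 0.25, 28 with one of 5 and 764 at 1.5-fold. The balance (0.917 and 0.899 of control) became 1.03 and 0.989 without Mmp2, 0.772 and 0.835 without Timp2, 0.879 and 0.827 without Mmp9 (chosen after seeing the data), 0.808 and 0.812 per kilobase, and 1.23 and 1.04 as the mean of log2 values, and 0.843 and 0.691 as that mean without Mmp9 (chosen after seeing the data). Where a result changed, the cause was not tested. The planned test on counts was not run. No paired analysis was possible because the labels give no replicate numbers; the additive fit already compares the groups within each time. Depth limits Adamts4 most, at 64 to 166 reads.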
